A study of Mus musculus with 6 samples.

Results

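The 41 genes described here encode lysosomal hydrolases, lysosomal membrane proteins and 3 transcription factors of the MiT/TFE family that regulate them. They were chosen by symbol, and all 41 were found among the 41255 genes of the deposited mRNA-sequencing table. The cells were Ba/F3, an interleukin-3 dependent mouse lymphoid line. Every culture carried a human RPL10 cDNA delivered by retrovirus together with an shRNA against the mouse Rpl10 gene, and every culture was exposed to cycloheximide (CHX), which stalls translating ribosomes, at 100 μg/ml for 5 min before RNA isolation. The RPL10 WT group comprised clones 28, 29 and 36 and the RPL10 R98S group, with serine instead of arginine at residue 98 of the ribosomal protein, comprised clones 11, 13 and 35. Each culture derived from a single cell, so that each library stands for 1 clone and p-values measure the spread between clones. The comparison asks which lysosomal mRNAs differ in level between R98S and WT cells.

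Lysosomes are acidic organelles in which hydrolases break down proteins, glycans, lipids and nucleic acids that arrive by endocytosis or autophagy. Most of the enzymes receive a mannose 6-phosphate tag in the Golgi, are sorted by receptors and work at the low pH kept by a proton pump, while heavily glycosylated membrane proteins line the organelle and transporters export the products. Tfeb, Tfe3 and Mitf bind E-box sequences, among them the extended element found at many lysosomal genes, and are held in the cytoplasm when mTORC1 on the lysosomal surface is active.

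The E-box core was therefore looked for in the members' promoters. RefSeq windows (GRCm38.p6, 250 bases before to 50 after the annotated start) were found for 36 of the 41 members. The palindrome CACGTG, which reads the same on both strands, was present in 13 of these 36 (36.1%) and in 8.09% of the 27025 genes with such a window. The longer palindrome TCACGTGA, which contains the core, was present in 5 of 36 (13.9%), namely Ctsa, Ctsd, Gla, Cln3 and Mcoln1, and in 1.12% of all genes. A 30-base stretch is given for 9 members, with the core in capitals, to show which bases flank the core. They include Lgmn, Glb1 and Mcoln1, whose mRNA differed between the groups, and the other 4 members with the longer palindrome. Lamp1, the member with the highest level per length, is given too, and its window held 4 copies of the core. The last is Sgsh, the member with the highest positive log2 fold change, which did not pass the test.
Lgmn, chr12:102439124-102439153, minus strand: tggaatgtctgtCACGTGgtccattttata
Glb1, chr9:114401018-114401047, plus strand: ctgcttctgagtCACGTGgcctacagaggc
Mcoln1, chr8:3500462-3500491, plus strand: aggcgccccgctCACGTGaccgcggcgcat
Cln3, chr7:126583340-126583369, minus strand: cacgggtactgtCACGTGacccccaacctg
Ctsa, chr2:164833749-164833778, plus strand: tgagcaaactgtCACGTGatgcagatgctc
Ctsd, chr7:142387908-142387937, minus strand: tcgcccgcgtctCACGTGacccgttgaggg
Gla, chrX:134601182-134601211, minus strand: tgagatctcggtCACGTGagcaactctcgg
Lamp1, chr8:13159121-13159150, plus strand: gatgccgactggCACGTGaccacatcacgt
Sgsh, chr11:119355522-119355551, minus strand: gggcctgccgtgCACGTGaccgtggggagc

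The libraries held 21786776 to 24204991 reads on genes, and values are normalized read counts, that is reads divided by the authors' size factor for the library. Rpl10, the target of the shRNA, lay between 1883 and 3156 normalized counts over the 6 clones with overlapping groups, and these values may hold reads of the human cDNA that mapped to the mouse gene. Of the markers of the line, Ptprc, Il3ra, Csf2rb, Csf2rb2 and Runx1 were expressed in both groups and Ikzf1 was low, although 5 of these 6 differed between the groups (Ptprc, Runx1 and Ikzf1 lower in R98S cells, Csf2rb and Csf2rb2 higher), and of the B lineage markers Cd79a and Cd79b were present while Pax5, Ebf1, Vpreb1, Igll1, Rag1, Cd22 and Blnk had means under 10. Macrophages have abundant lysosomes, and their markers were low: the 8 listed genes summed to 433.3 to 650.3 normalized counts in the WT group and 252.4 to 427.4 in the R98S group. Csf1r and C1qa were near 0, Lyz2 and Fcgr1 were lower in R98S cells, the best expressed, Cd68 and Mpeg1, did not pass the test, and Cd14 gave 304 of the counts of WT clone 28. The 10 mast cell and basophil markers summed to 27459 to 31533 in WT and 16099 to 17583 in R98S clones. Most of this was Gata2, which fell, while Fcer1a was at 0 in all clones and Kit, Prss34 and Tpsb2 near 0. Cma1, the next most abundant, averaged 1522 in WT and 1493 in R98S, with R98S clone 13 at 28.6. Cma1, Cpa3, Hdc, Ms4a2 and Mcpt8 did not pass the test. The part of these markers in the lysosomal results was not tested. In RNA from whole cultures, fewer cells of a type and less RNA per cell cannot be told apart.

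Of the 41 members, 38 reached a mean of 10 normalized counts and were tested with limma across 11550 genes, and 11 of the 38 (28.9%) differed between R98S and WT cells at an adjusted p under 0.1. Over all tested genes 23.9% did so. Of these 11 members, 8 were lower in R98S cells (21.1% of those tested, against 13.1% of all genes lower) and 3 were higher (7.89%, against 10.7% of all genes higher). The median log2 fold change of R98S against WT was -0.12 over the tested members and -0.01 over all genes, with 20 members below 0 and 18 above. Values of the 2 groups did not overlap for 13 of the 38 members (34.2%), and for 37.3% of all genes. The members that fell were Lgmn, Arsb, Glb1, Lipa, Asah1, Mcoln1, Psap and Tfe3, and those that rose were Gusb, Tpp1 and Cd63. Lgmn, Arsb, Glb1 and Lipa passed the threshold in each of 16 other settings of the analysis, and each of the other 7 lost its call when at least 1 clone was left out. With WT clone 28 left out 6 members passed (6 lower), with WT clone 29 left out 4 passed (4 lower), and with R98S clone 11 left out 8 passed (4 higher and 4 lower). Over all tested genes the calls dropped from 2755 to 1327, 1464 and 1578 in the same settings. Without WT clone 28 or 29, 0 members were higher by limma, where 3 and 4 were higher at an unadjusted p under 0.05. On all 6 libraries edgeR gave 4 higher and DESeq2 5. The share of higher among the members called was 27.3%, and it was 41.7% when libraries were scaled to the same upper quartile and 38.5% with DESeq2.

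**Figure D1:**
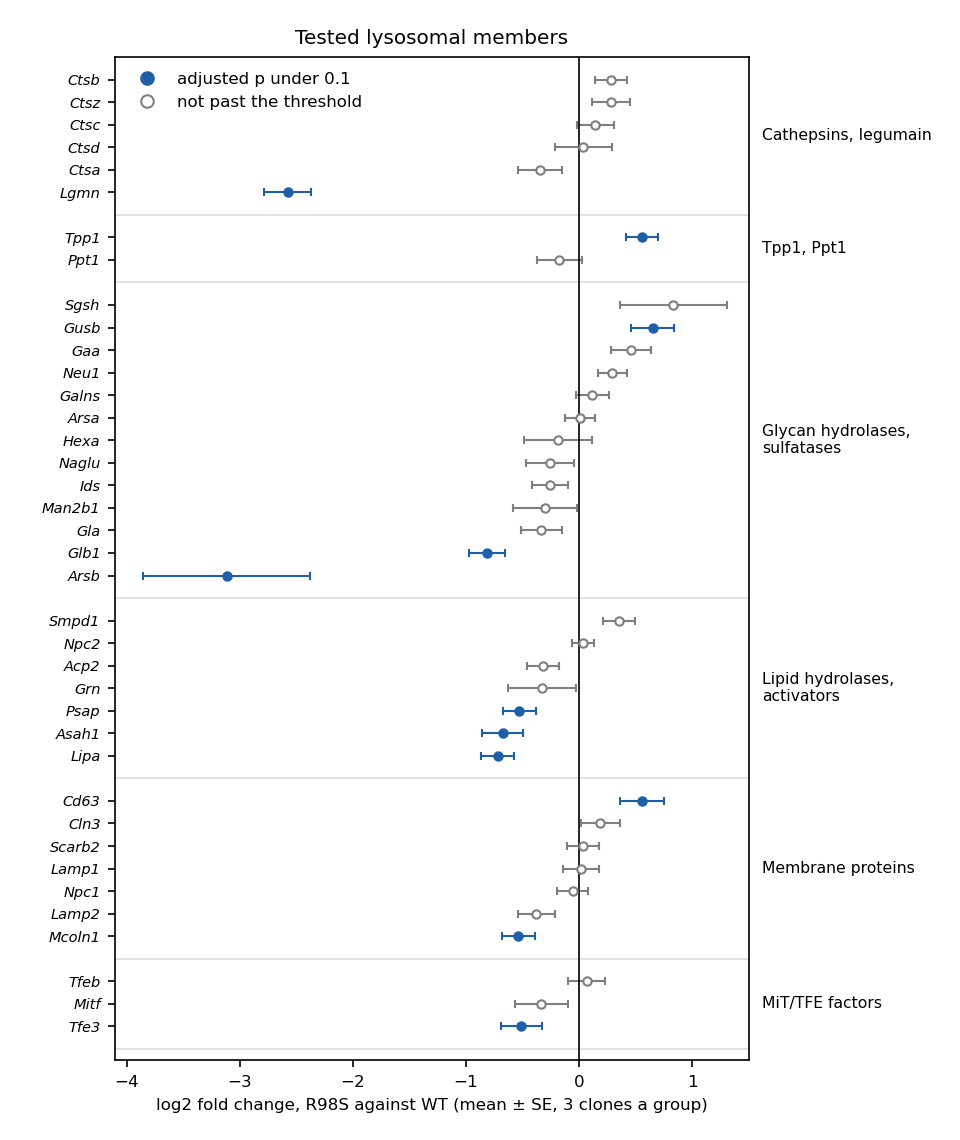
Log2 fold change of R98S against WT (x axis) for the 38 tested members, grouped by role, as mean ± SE of 3 clones a group. Filled points are the 11 members with an adjusted p under 0.1, and Lgmn at -2.58 and Arsb at -3.11 lie far to the left of the others.

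Among the proteases, legumain was the member with the clearest difference, while the cathepsin mRNAs present in these cells did not pass the test. Lgmn encodes the asparaginyl endopeptidase that cleaves after asparagine and processes several cathepsins (chr12:102394084-102439813, minus strand, mm10). Lgmn stood at 3971, 4407 and 3647 normalized counts in the WT group (clones 28, 29 and 36, the order kept for all genes) and at 511, 937 and 624.5 in the R98S group (clones 11, 13 and 35). The highest R98S clone was thus far below the lowest WT clone. Mean levels were 4008 ± 382 (SD, n = 3) in WT and 691 ± 220 (SD, n = 3) in R98S, 5.80-fold lower. The log2 fold change was -2.58 ± 0.21 (SE), with an adjusted p of 0.000351 in limma. Per kilobase of annotated exon, Lgmn went from a mean of 1730 normalized counts in WT, close to Psap at 1630, to 297 in R98S.

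Ctsd, the main aspartic protease of lysosomes, was at 5226, 6671 and 3598 normalized counts in the WT clones and at 4166, 4757 and 6855 in the R98S clones. The highest and lowest of the 6 values belonged to R98S clone 35 and WT clone 36, and the groups overlapped widely. Its log2 fold change was 0.04 ± 0.25 (SE), with an adjusted p of 0.934 in limma. The exons of Ctsd share 808 bases on the same strand with the gene model Gm49369, and reads there could be assigned to either. The log2 fold changes of Ctsa, Ctsb, Ctsc and Ctsz, which encode the protective protein cathepsin A, the cysteine protease cathepsin B, dipeptidyl peptidase cathepsin C and the carboxypeptidase cathepsin Z, ranged from -0.34 to 0.28, with adjusted p-values in limma of at least 0.222.

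The remaining 3 cathepsins, all cysteine proteases, were at the limit of what this depth can show. Ctss, the cathepsin S of antigen-presenting cells, was at 21.5, 14.0 and 5.00 normalized counts in the WT clones and at 1.88, 2.04 and 3.70 in the R98S clones. The groups did not overlap, but the R98S values lie around the floor of 3 reads. The gene was left out of the main fit because its mean was under 10. In limma without the minimum level its log2 fold change was -1.87, with an adjusted p of 0.0934. Ctsh and Ctsl did not exceed 4.08 and 4.30 normalized counts in any clone, and a difference between the groups was not detectable.

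Of Tpp1 and Ppt1, soluble enzymes mutated in neuronal ceroid lipofuscinoses, Tpp1 passed the test and Ppt1 did not, and the difference between them was not tested. Tpp1, the tripeptidyl peptidase that removes tripeptides from protein ends (chr7:105744811-105752235), was at 2168, 2203 and 2605 normalized counts in WT and at 3019, 3225 and 4059 in R98S clones. All R98S clones were above all WT clones. Tpp1 rose by 0.56 ± 0.14 (SE) on the log2 scale, from 2325 ± 243 to 3434 ± 550 normalized counts (SD, n = 3 each), with an adjusted p of 0.0344 in limma. The call was lost without WT clone 28 (adjusted p = 0.128) and without WT clone 29 (adjusted p = 0.109). Ppt1, which removes fatty acyl groups from proteins, had a log2 fold change of -0.18 and an adjusted p of 0.581 in limma.

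Of the 13 glycosidases, glycosaminoglycan hydrolases and sulfatases, 2 fell (15.4%, against 13.1% of all genes), 1 rose (7.69%, against 10.7%) and 10 did not pass the test, shares close to those of all genes. Arsb, the sulfatase that removes sulfate from N-acetylgalactosamine in dermatan and chondroitin sulfate (chr13:93771630-93943016), was at 237, 178 and 304 normalized counts in WT and at 87.3, 7.14 and 26.8 in R98S clones. R98S clone 13 held 7 reads, close to the floor, and none of the R98S clones reached the lowest WT clone. Its mean was 5.93-fold lower in R98S cells and the log2 fold change was -3.11 ± 0.74 (SE), with an adjusted p of 0.0287 in limma. The size of the change rested on single R98S clones: the log2 fold change was -3.97 without clone 11 and -2.25 without clone 13, and -2.55 in edgeR. Exons of the gene models Gm26527 and Gm47210 overlap 2411 bases of Arsb on the opposite strand. The kit keeps the strand of the RNA, but whether the counting used it is not given in the sources used here.

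Glb1 encodes the beta-galactosidase that removes terminal galactose from gangliosides and keratan sulfate (chr9:114401076-114474898). It was at 4235, 4985 and 4560 normalized counts in WT and at 2182, 3312 and 2457 in R98S clones, and the groups did not overlap. Mean levels were 4594 ± 376 in WT and 2650 ± 589 in R98S (SD, n = 3 each), 1.73-fold lower. Its log2 fold change was -0.81 ± 0.16 (SE), with an adjusted p of 0.0162 in limma. Glb1 shares 165 exon bases on the same strand with Tmppe.

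Gusb, the beta-glucuronidase of glycosaminoglycan breakdown (chr5:129989011-130003049), moved the other way. It was at 2400, 2231 and 2356 normalized counts in WT and at 3066, 3148 and 5058 in R98S clones. R98S clone 35 lay well above the other R98S clones, and the lowest R98S clone was above the highest WT clone. Gusb rose by 0.65 ± 0.19 (SE) on the log2 scale with an adjusted p of 0.0525 in limma, and the adjusted p was 0.126 without WT clone 28 and 0.138 without WT clone 29.

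The 10 remaining members of this group were Hexa (a hexosaminidase subunit), Gaa (the glucosidase that digests glycogen), Gla (alpha-galactosidase), Galns, Naglu, Ids and Sgsh (enzymes of keratan or heparan sulfate breakdown), Neu1 (sialidase), Man2b1 (alpha-mannosidase) and Arsa (the sulfatase for sulfatides). Their log2 fold changes ranged from -0.33 for Gla to 0.83 for Sgsh, with adjusted p-values in limma from 0.116 for Gaa to 0.975 for Arsa. Sgsh was weakly expressed and spread widely, at 66.6, 45.1 and 42.0 normalized counts in WT and at 43.2, 98 and 173 in R98S clones, and its groups overlapped.

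The next 7 members were lipid hydrolases, lipid transfer and activator proteins, the acid phosphatase Acp2 and progranulin (Grn). Of these 7, 3 were lower in R98S cells (42.9%, against 13.1% of all genes). Values of the WT and R98S clones did not overlap for 5 (71.4%, against 37.3%). None was higher in limma on the deposited scale or in edgeR. At an unadjusted p under 0.05 in limma 4 of the 7 differed, and so did 3663 of the 11550 tested genes. The fourth was Smpd1, which was higher. Smpd1 passed the threshold in DESeq2 (adjusted p = 0.0953) and in limma with libraries scaled to the same upper quartile (adjusted p = 0.0941). Summed over the group, the level was 17153, 17717 and 17900 normalized counts in the WT clones and 12128, 15774 and 15648 in the R98S clones.

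Lipa encodes lysosomal acid lipase, which cleaves cholesteryl esters and triglycerides (chr19:34492318-34527474). Lipa was at 1767, 1766 and 1452 normalized counts in WT and at 892, 1177 and 962 in R98S clones, without overlap. Mean levels were 1662 ± 182 and 1010 ± 148 (SD, n = 3 each), 1.64-fold lower in R98S. On the log2 scale the change was -0.72 ± 0.14 (SE), with an adjusted p of 0.0168 in limma.

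Psap encodes prosaposin, the precursor of the saposins that present sphingolipids to their hydrolases (chr10:60277627-60302597). It was at 4096, 4887 and 4450 normalized counts in WT and at 2533, 3265 and 3595 in R98S clones. No R98S clone reached the WT range, and clone 11 was the lowest. The log2 fold change was -0.53 ± 0.15 (SE), with an adjusted p of 0.0466 in limma. It was -0.46 (adjusted p = 0.146) without WT clone 29 and -0.38 (adjusted p = 0.113) without R98S clone 11.

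Asah1, the acid ceramidase that releases sphingosine (chr8:41340197-41374773), was at 1999, 2381 and 1878 normalized counts in WT and at 1103, 1702 and 1166 in R98S clones. R98S clone 13 came close to the lowest WT clone without reaching it. Asah1 had a log2 fold change of -0.68 ± 0.18 (SE), with an adjusted p of 0.0423 in limma. The call was lost without WT clone 28 or 29 or R98S clone 11 or 35, with adjusted p-values of 0.106 to 0.132. The 30 nearest tested genes on chromosome 8 were shifted by -0.41 (median, log2 scale), and with that regional shift subtracted Asah1 was at -0.27 (adjusted p = 0.210).

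The other 4 were Npc2, which hands cholesterol to the membrane protein Npc1, Smpd1 (acid sphingomyelinase), Acp2 (acid phosphatase) and Grn (progranulin). Npc2 was among the steadiest members, at 4972 ± 333 normalized counts in WT and 5090 ± 297 in R98S clones (SD, n = 3 each). Smpd1 and Acp2 did not overlap between the groups, with log2 fold changes of 0.35 and -0.32, and adjusted p-values in limma of 0.136 and 0.159. Grn was at -0.33 ± 0.30 (SE), and R98S clone 11 (1374 normalized counts) lay below the other 5 clones (2567 to 3604).

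**Figure D2:**
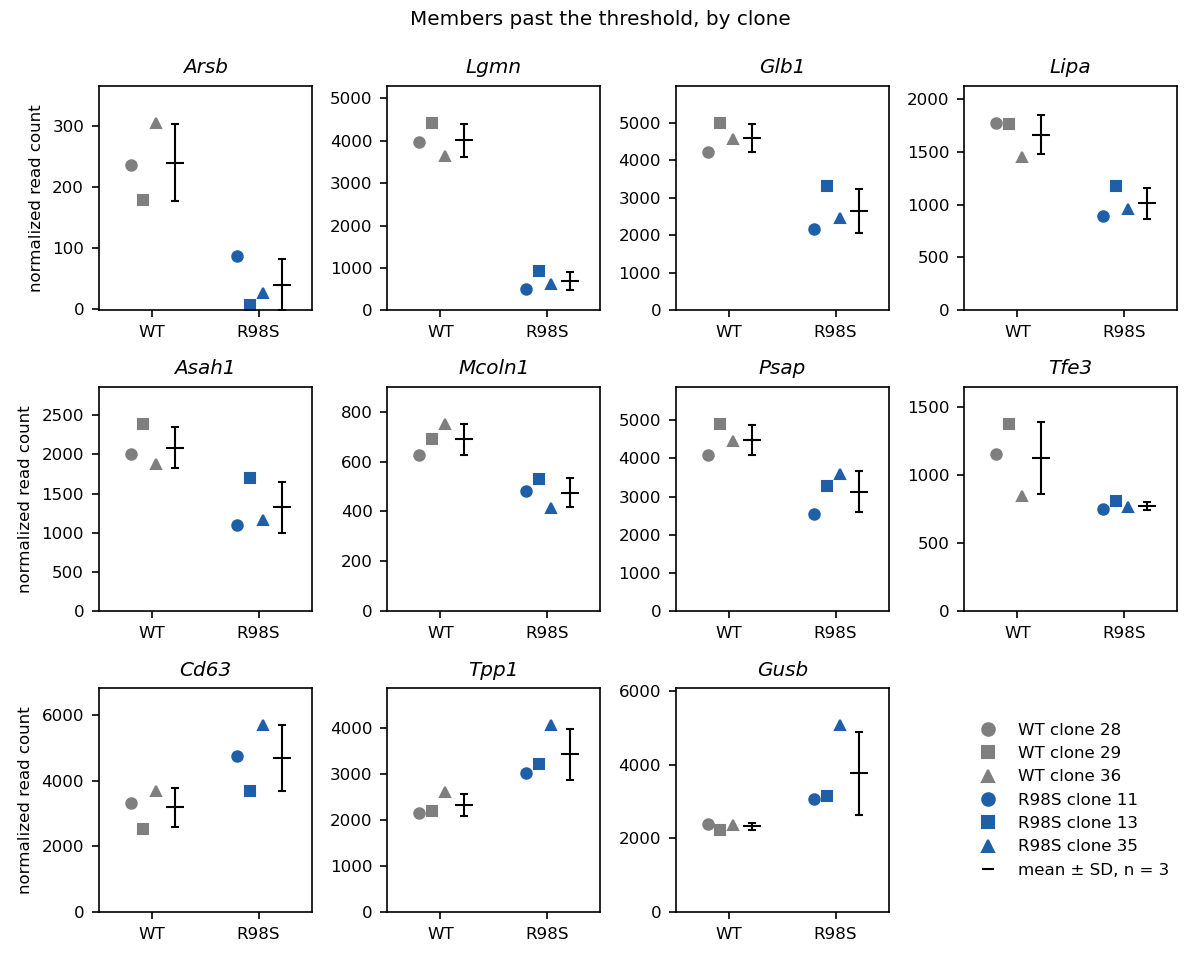
Normalized read count (y axis, linear) of the 11 members that passed the threshold, one panel each, with a point for each clone and the mean ± SD of 3 clones beside them. Groups separate fully except for Cd63, where WT clone 36 (3695) is above R98S clone 13 (3672), and R98S clone 35 stands above the other R98S clones for Gusb (5058).

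The summed level of the membrane proteins did not separate the groups. Over the 7 genes it was 22402, 24192 and 22718 normalized counts in the WT clones and 23096, 23671 and 22781 in the R98S clones, with the R98S clones inside the WT range. Of the 7, 1 fell (14.3%, against 13.1% of all genes), 1 rose (14.3%, against 10.7%) and 5 did not pass the test. Lamp1, which with Lamp2 makes up much of the protein of the lysosomal membrane, was at 9935, 10860 and 10270 normalized counts in WT and at 9593, 13390 and 8927 in R98S clones. The WT values lay inside the R98S range. Lamp1 had a log2 fold change of 0.02 ± 0.16 (SE), with an adjusted p of 0.955 in limma. Lamp1 was also the member with the highest level per kilobase of exon, at 3870 normalized counts per kb in WT and 3980 in R98S. Ctsd, at 2200 and 2240, came next over all clones, and Ctsz, at 1890 and 2300, was above it in R98S.

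Lamp2, which takes part in autophagosome clearance and in chaperone-mediated autophagy, was at 6513, 7788 and 5991 normalized counts in WT and at 6174, 4202 and 5350 in R98S clones. R98S clone 11 lay inside the WT range and the other two R98S clones below it. The log2 fold change of Lamp2 was -0.38 ± 0.16 (SE), with an adjusted p of 0.155 in limma.

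Mcoln1 encodes mucolipin, the cation channel that releases calcium from lysosomes (chr8:3500457-3515232). It was at 625, 692 and 749 normalized counts in WT and at 483, 531 and 413 in R98S clones, and the groups did not overlap. Mcoln1 fell with a log2 fold change of -0.54 ± 0.15 (SE), with an adjusted p of 0.0446 in limma. Without WT clone 29 or 36 or R98S clone 11 or 35 the adjusted p was 0.101 to 0.130 and the fold change -0.55 to -0.44.

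Cd63, a tetraspanin of late endosomes, lysosomes and exosomes (chr10:128900989-128912822), was at 3325, 2531 and 3695 normalized counts in WT and at 4742, 3672 and 5672 in R98S clones. The groups overlapped by a small margin. Cd63 rose by 0.56 ± 0.19 (SE) on the log2 scale, with an adjusted p of 0.0878 in limma. Its call was lost without WT clone 28 or 29 or R98S clone 11 or 35 (adjusted p of 0.165 to 0.246), without the minimum level (0.106) and without the intensity trend (0.147). The cholesterol exporter Npc1, the glucocerebrosidase receptor Scarb2 and the Batten disease protein Cln3 had log2 fold changes of -0.06, 0.03 and 0.19, with adjusted p-values in limma of at least 0.489.

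The 3 transcription factors differed in level, and the most abundant was not the one that fell. Per kilobase of exon, Mitf was at 237 normalized counts in WT and 192 in R98S, Tfe3 at 121 and 83.5, and Tfeb at 53.1 and 55.2. Tfe3 (chrX:7762560-7775202) was at 1154, 1369 and 844 normalized counts in WT and at 750, 807 and 763 in R98S clones. The R98S clones lay close together just below WT clone 36. The log2 fold change was -0.51 ± 0.18 (SE), with an adjusted p of 0.0904 in limma. The Tfe3 call was lost in 9 of 16 other settings: without any single clone other than WT clone 36 (adjusted p of 0.116 to 0.265), without a minimum level, at the same upper quartile, without the trend and with the regional shift subtracted (-0.30, adjusted p = 0.260).

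Tfeb was at 256, 302 and 345 normalized counts in WT and at 320, 298 and 321 in R98S clones, inside the WT range. Its log2 fold change was 0.07 ± 0.16 (SE), with an adjusted p of 0.812 in limma. Mitf was at 1508, 1701 and 1192 normalized counts in WT and at 805, 1483 and 1273 in R98S clones. R98S clone 11 was the lowest and the other two lay inside the WT range, and the log2 fold change of -0.34 ± 0.23 (SE) had an adjusted p of 0.361 in limma. Of the 12 tested members with the core CACGTG in their promoter window, 6 had a log2 fold change below 0 and 6 above, with a median of -0.12, and the median of the 22 tested members whose window lacked it was -0.18. The core was in the window of 3 of 10 members that passed the threshold and of 9 of 24 tested members that did not.

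**Figure D3:**
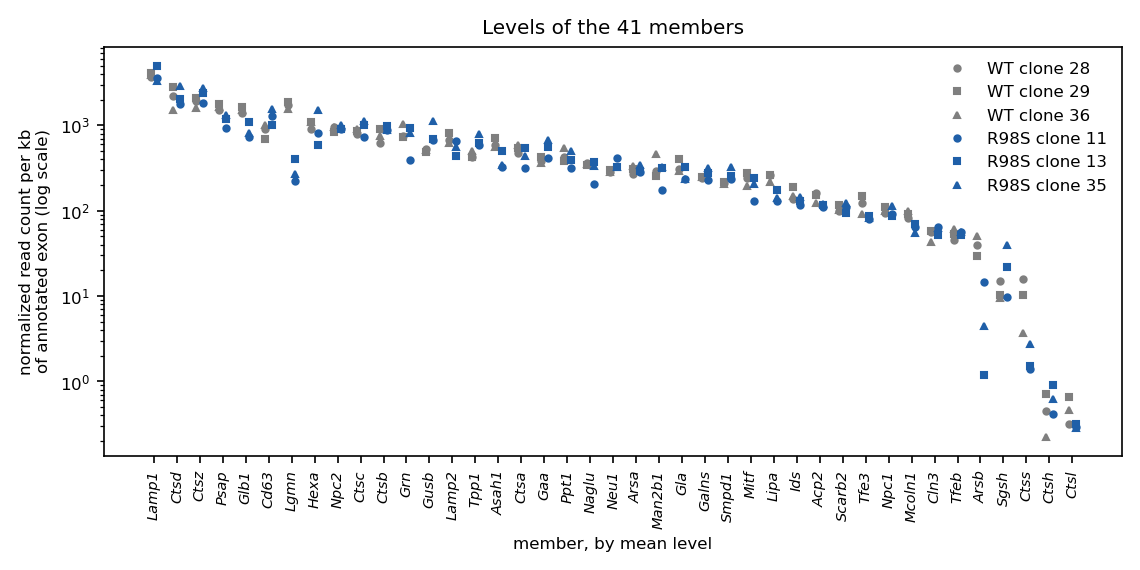
Normalized read count per kilobase of annotated exon (y axis, log scale) of the 41 members in each clone, ordered by mean level. The points run from Lamp1 at 3920 on average to Ctsl at 0.388, and the gap between WT and R98S clones is widest for Lgmn, Arsb and Ctss.

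The R98S clones differed among themselves in their lysosomal mRNAs. R98S clone 11 had the lowest value of the 3 R98S clones for 26 of the 38 tested members (68.4%), compared with 31.6% of all tested genes, and R98S clone 35 had the highest for 21 (55.3%, against 32.3% of all genes) and the lowest for 3. Among WT clones, clone 29 had the highest value for 19 members (50%, against 36.8% of all genes). Members are not independent of each other, so these shares are a description of 6 libraries. The SD of log2 values within a group had a median over members of 0.17 in WT and 0.29 in R98S clones, compared with 0.16 and 0.20 over all genes, and it was wider in R98S clones for 29 of 38 members (76.3%) and for 60.6% of all genes. Summed over the 41 members, the level was 87152, 95864 and 90119 normalized counts in the WT clones and 75083, 88856 and 94355 in the R98S clones. R98S clone 11 was below the WT clones and the other two R98S clones were inside the WT range. The members took 0.380% to 0.409% of reads in WT libraries and 0.331% to 0.424% in R98S libraries.

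**Figure D4:**
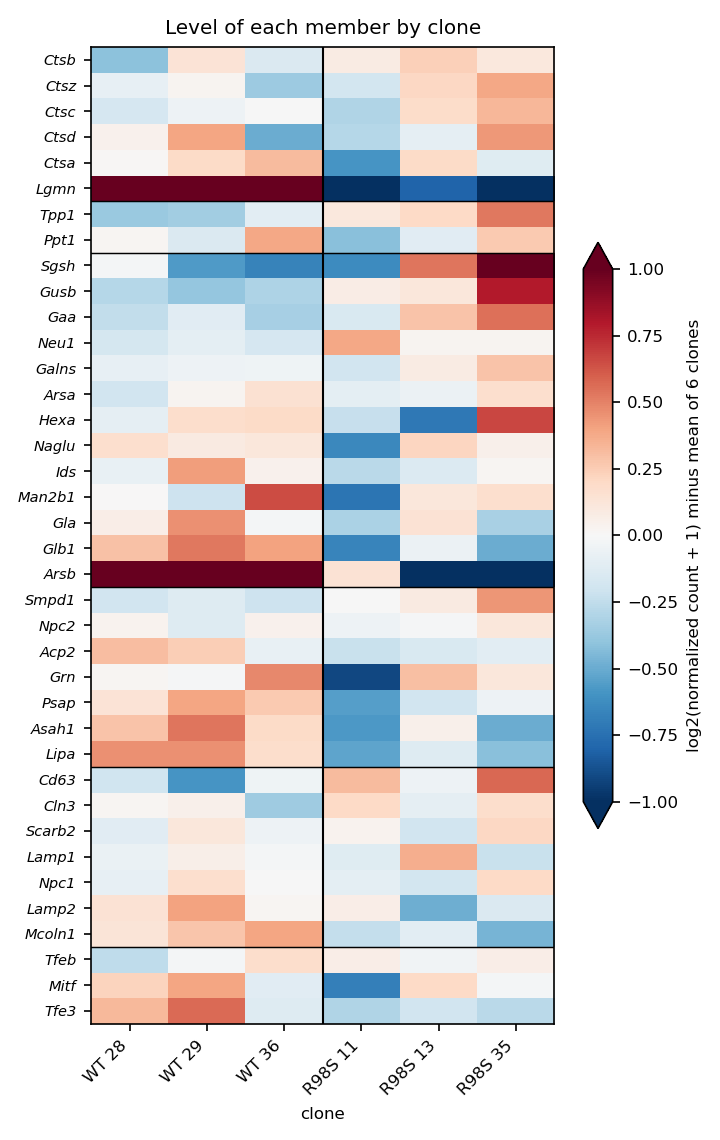
Deviation of log2(normalized count + 1) from the mean of the 6 clones (colour, limited to 1 in either direction) for the 38 tested members (rows, by role) in each clone (columns). The column of R98S clone 11 is mostly blue and that of R98S clone 35 mostly red among glycan hydrolases, while Lgmn and Arsb separate the groups.

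Genes that act around the members were read from the same fit. Of 22 other lysosomal hydrolases and activators that were tested, 3 fell in R98S cells (13.6%, against 13.1% of all genes): Dnase2a, the acid DNase (1302 ± 70 normalized counts in WT, 899 ± 57 in R98S, SD, n = 3 each), Hgsnat, which acetylates heparan sulfate for its breakdown (1246 ± 146 and 742 ± 34), and Scpep1, a serine carboxypeptidase (525 ± 211 and 261 ± 103). Their log2 fold changes were -0.53, -0.74 and -0.997, with adjusted p-values in limma of 0.0191, 0.0104 and 0.0861. None was higher in the main limma fit, where 1 was higher at an unadjusted p under 0.05, while edgeR called 1 and DESeq2 2 higher. In limma without R98S clone 13, 2 were higher and 5 lower. With the regional shift subtracted 3 were higher and 3 lower. Dnase2a shares 1616 exon bases with Mast1 on the opposite strand, and with the regional shift of chromosome 8 subtracted its log2 fold change was -0.17 (adjusted p = 0.308).

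Of 29 other membrane proteins and transporters tested, 5 fell (17.2%, against 13.1% of all genes), among them Laptm4a and Litaf, small proteins of endosomes and lysosomes (2288 ± 261 to 1567 ± 193 and 2299 ± 350 to 1388 ± 208 normalized counts from WT to R98S, SD, n = 3 each), and Cln6, a protein of the endoplasmic reticulum needed to deliver lysosomal enzymes (2076 ± 229 to 1244 ± 250). Log2 fold changes were -0.55, -0.73 and -0.75, with adjusted p-values in limma of 0.0314, 0.0203 and 0.0231. No gene of this list was higher in the main limma fit or edgeR, with 1 higher at an unadjusted p under 0.05 in limma and 1 called by DESeq2. In limma, 2 were higher and 5 lower with the regional shift subtracted, and 2 were higher and 7 lower without R98S clone 13. Without R98S clone 35, 1 was higher and 5 lower. Without WT clone 28 or R98S clone 11, 3 genes of this list passed, while calls over all tested genes dropped from 2755 to 1327 and 1578.

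The vacuolar ATPase is the proton pump that acidifies the lysosome. Of 17 tested subunits, 4 fell (23.5%, against 13.1% of all genes), the most abundant being Atp6v1a (4364 ± 450 normalized counts in WT, 2894 ± 311 in R98S, SD, n = 3 each), Atp6v1b2 (3517 ± 497 and 2536 ± 538) and Atp6v0d1 (3162 ± 355 and 2149 ± 320). Log2 fold changes were -0.59, -0.48 and -0.56, with adjusted p-values in limma of 0.0194, 0.0908 and 0.0333. Atp6v1a and Atp6v1b2, on chromosomes 16 and 8, did not pass with the regional shift subtracted (-0.27, adjusted p = 0.236, and -0.20, adjusted p = 0.268). No subunit was higher in the main limma fit, where 2 were higher at an unadjusted p under 0.05, and edgeR and DESeq2 each called 1 higher. With the regional shift subtracted 1 was higher and 2 lower, and without R98S clone 13, 2 were higher and 3 lower. Without WT clone 28 or 29, 1 subunit passed, and without R98S clone 11 or 35, 2 passed. Over all tested genes the calls dropped from 2755 to 1327, 1464, 1578 and 2007 in these settings.

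Of 15 tested genes for the tagging and sorting of hydrolases, 3 fell (20%, against 13.1% of all genes) and 1 rose (6.67%, against 10.7%). With the regional shift subtracted the balance turned, with 4 higher and 2 lower. The lower genes were Vps35, the core of the retromer that returns sorting receptors to the Golgi (9173 ± 562 normalized counts in WT, 6292 ± 363 in R98S, SD, n = 3 each), and Gga1 and Ap1m1, adaptors for receptors leaving the Golgi (1510 ± 24 and 986 ± 153, and 1497 ± 111 and 951 ± 60). Log2 fold changes were -0.54, -0.63 and -0.65, with adjusted p-values in limma of 0.0130, 0.0200 and 0.0107. With the regional shift subtracted Vps35 was at -0.11 (adjusted p = 0.535). Vps35 and Ap1m1 lie on chromosome 8, as do the lower genes Asah1, Mcoln1, Hgsnat, Dnase2a, Atp6v1b2, Atp6v0d1 and Map1lc3b named in this report. Of these, Vps35, Asah1, Dnase2a and Atp6v1b2 lost the call with the regional shift subtracted, and the others kept it. Lamp1, Galns and Man2b1, on the same chromosome, did not pass the test. The higher gene, named after its values were seen, was Nagpa, which uncovers the mannose 6-phosphate tag (log2 fold change of 0.53, adjusted p = 0.0350 in limma).

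Of 21 tested genes of nutrient sensing at the lysosome, which controls the Tfeb family, 3 fell (14.3%, against 13.1% of all genes). Lamtor4, a subunit of the Ragulator complex that anchors mTORC1 at the lysosome, was at 2618, 2300 and 3494 normalized counts in WT and at 798, 1243 and 1244 in R98S clones. All R98S clones were below all WT clones, and the log2 fold change was -1.36 ± 0.22 (SE) with an adjusted p of 0.00751 in limma. Fnip2, a partner of folliculin, and Depdc5, of the GATOR complex that restrains mTORC1, fell by 0.66 and 0.78 on the log2 scale, with adjusted p-values in limma of 0.0626 and 0.00696. On all 6 libraries no gene of this list was higher by limma, edgeR or DESeq2 or at an unadjusted p under 0.05 in limma.

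Of 25 tested autophagy genes, 8 fell (32.0%, against 13.1% of all genes) and 1 rose (4.0%, against 10.7%). The most abundant lower genes were Map1lc3b, the microtubule-associated light chain that coats autophagosomes (3832 ± 273 normalized counts in WT, 2925 ± 334 in R98S, SD, n = 3 each), Wipi2, which acts where autophagosomes form (2784 ± 362 and 2181 ± 123), and Vps41, of the HOPS complex for fusion with lysosomes (2591 ± 150 and 2006 ± 140). Log2 fold changes were -0.39, -0.34 and -0.37, with adjusted p-values in limma of 0.0568, 0.0988 and 0.0492. With the regional shift subtracted Wipi2 did not pass (-0.26, adjusted p = 0.127) and Vps41 changed sign (0.27, adjusted p = 0.118). The higher gene, named after its values were seen, was Uvrag, a partner of the lipid kinase of autophagy. Its log2 fold change was 0.48, with an adjusted p of 0.0265 in limma. The Uvrag call was lost with the regional shift subtracted (0.23, adjusted p = 0.174), where the list had 6 genes lower and 0 higher. Without WT clone 28, 3 autophagy genes passed the threshold, and without WT clone 29 or R98S clone 11, 5 passed. Of these, 3, 4 and 4 were lower (12%, 16% and 16%). Calls were also lost over all tested genes, where 736, 804 and 870 were lower in the same settings, against 1514 on all 6 libraries.

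**Figure D5:**
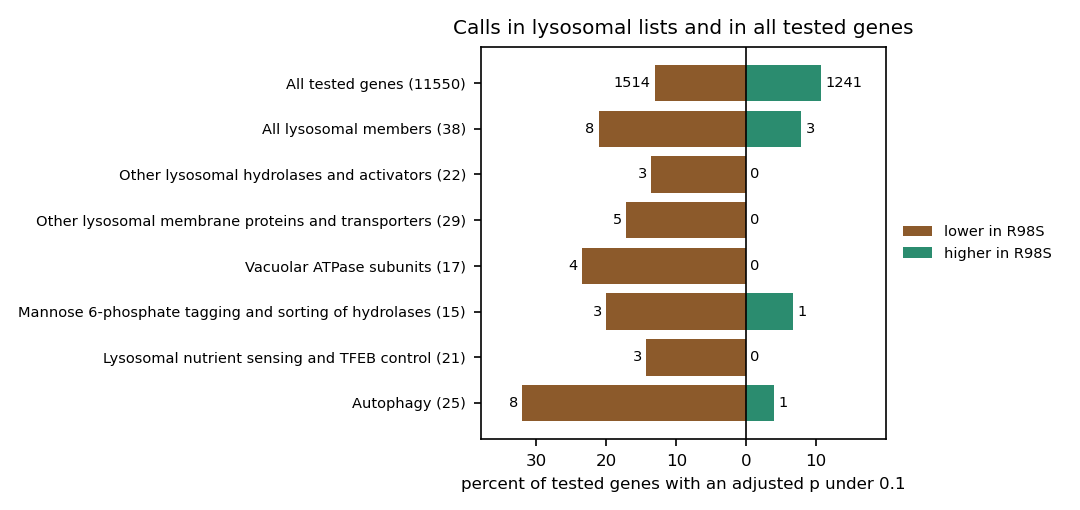
Percent of tested genes with an adjusted p under 0.1 (x axis) that were lower (left) or higher (right) in R98S cells, for all tested genes, the members and 6 lists of neighbouring genes, with the number tested in parentheses and the number called at each bar's end. With the deposited scaling each list has more lower than higher genes, although with the regional shift subtracted sorting genes have 4 higher and 2 lower and other hydrolases 3 and 3. The share of lower genes is 21.1% for the members, 32.0% for autophagy and 13.1% for all tested genes. Among all called genes the share that is higher is 45%, and 52.6% when libraries are scaled to the same upper quartile.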

How the data were processed

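mRNA from 3 RPL10 WT and 3 RPL10 R98S Ba/F3 clones was sequenced (TruSeq Stranded mRNA kit, Illumina HiSeq). The authors removed rRNA and tRNA reads with Bowtie2, aligned the remainder to mm10 and its spliced transcripts with TopHat, kept primary alignments of mapping quality 10 or more and counted exon reads. HTSeq is among the tools in the submitters' processing notes, and the annotation and strand setting are not given in the sources used here. The deposited unit is a signal, the read count of a gene over the DESeq2 size factor of its library. Division by what 1 read is worth in a library gave whole reads for 100% of values, within 0.001 reads, and totals of 21786776 to 24204991. The floor was set at 3 reads and covers counting error only. Replicates differed by more than sampling noise (chi-square over degrees of freedom from 18.7 to 65.2), and 0 value columns were left without a sample.

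Groups came from the clone labels. Differences were tested, two-sided, with limma 3.58.1 under R 4.3.3. Values entered as log2(normalized count + 1), the trend option was on, and genes were kept at a mean of at least 10. P-values were adjusted by Benjamini-Hochberg over 11550 genes, with a threshold of 0.1. This scale understates changes of weakly expressed genes. Alternatives were pseudocounts of 0.5 and 5, no minimum or one of 50, other scalings, no trend, each clone left out, a threshold of 0.05, the median of the 30 nearest tested genes subtracted, and edgeR 4.0.16 and DESeq2 1.42.0 on the recovered reads, which called 2746 and 3105 genes. For the neighbouring lists, DESeq2 and the regional correction were added after seeing the data. The scripts were tested on simulated data in which 200 of 11439 genes changed 2-fold, and limma recovered 82.5% of these with 10.3% of its calls false. On the same simulated data edgeR recovered 83.0% with 11.7% of its calls false, and DESeq2 93.0% with 25.6% false. Limma with the regional shift subtracted recovered 75.5% with 8.49% false. That run covered 10882 genes, and any changed gene left out of it counted as not recovered. The changed genes were drawn from those with a mean of at least 50 reads, and no regional shift was simulated. In the data 23.9% of tested genes were called, a larger share than was changed in the simulation, so these rates may not carry over. Gene positions, exon lengths and exon overlaps came from GENCODE vM21 on GRCm38 and promoters from RefSeq on GRCm38.p6.

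The members and lists were chosen with earlier results of these data known. Members that passed the test and Lamp1, Lamp2, Ctsd, Tfeb, Tfe3 and Mitf are given with every clone's value, and at most the 3 genes with the highest mean among those passing in each list. Values of Sgsh, Ctss, Npc2, Grn, Nagpa and Uvrag were added after they were seen.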

Additional observations from a re-analysis of the deposited data

How the results depend on the processing

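Of 608 values of single members under another setting, 542 kept direction and side of the threshold, 30 lost and 14 gained a call, and 22 changed sign. Every change of sign was in a member that did not pass the threshold, and the cause was not tested. With 1 clone left out, the log2 fold change ranged from -0.20 to 0.246 for Ctsd, -0.566 to 0.125 for Hexa, -0.423 to 0.0036 for Naglu, -0.084 to 0.085 for Arsa, -0.022 to 0.067 for Npc2, -0.563 to 0.045 for Grn, -0.161 to 0.131 for Lamp1, -0.167 to 0.022 for Npc1, -0.059 to 0.138 for Scarb2 and -0.046 to 0.169 for Tfeb. With the regional shift subtracted it was -0.127 for Ctsc, -0.280 for Ctsd, 0.121 for Man2b1, -0.033 for Npc2, 0.125 for Npc1 and -0.101 for Cln3. Calls were gained by Gaa in 4 settings, Ctsa and Smpd1 in 2 each, and Hexa, Gla, Naglu, Sgsh, Acp2 and Lamp2 in 1 each. Ctss, which is not among the 608 values, passed in limma without the minimum level (adjusted p = 0.0934). Leaving out 1 clone gave 4 to 12 members (0 to 4 higher, 4 to 9 lower) and 1327 to 3219 genes (591 to 1432 higher, 736 to 1787 lower). The same gave 3 to 7 other hydrolases, 3 to 9 other membrane proteins, 1 to 5 ATPase subunits, 2 to 5 nutrient-sensing genes and 3 to 11 autophagy genes. At an adjusted p under 0.05 limma called 1722 genes (776 higher, 946 lower), 8 members (1 higher) and 2 ATPase subunits. Scaling to the same upper quartile gave 5 higher members, as did DESeq2. Other hydrolases numbered 5 in edgeR, 7 in DESeq2 and 6 with the regional shift subtracted, and nutrient-sensing genes 5 in DESeq2. Sorting genes numbered 6 with the regional shift subtracted (4 higher, 2 lower). No paired analysis was possible because the clone numbers differ between the groups. Ctsh, Ctsl and Ctss, and Arsb in R98S clone 13, were at or near the floor, and 3 clones a group limit the precision.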
